A study of Mus musculus with 20 samples.

Results

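The genes described here are *Mgll*, which encodes monoacylglycerol lipase, and a group of lipases and lipase regulators of the liver, namely *Abhd6*, *Pnpla2*, *Abhd5*, *G0s2*, *Lipe*, *Pnpla3*, *Lipa* and *Lipc*. They were measured in livers of 10 transgenic (tg) and 10 wildtype (wt) mice. The tg mice carried p62/*IMP2-2*, a splice form of the IGF2 mRNA binding protein IMP2, as a transgene that the series title calls liver-specific; no source read here names its promoter. All mice were untreated, 5 weeks old and of the background C57Bl6J/DBA2, and wt mice differed by the lack of the transgene. Liver RNA was hybridised to Affymetrix Mouse Genome arrays, and a level is the log2 signal of a probe set, a group of probes for the same transcript. *Mgll* was chosen by its lower signal in tg than in wt livers on these same arrays, so its difference between genotypes is a description and carries no test. The other members were selected for their function in lipid hydrolysis, with earlier results of these arrays known. Of the 9 members, 8 had at least 1 probe set annotated to them alone, with 18 probe sets in all, out of 45101 probe sets and 18194 genes on the array. *Lipc*, the hepatic lipase that works on lipoproteins at the vessel wall, was the member without such a probe set and was not analysed here.

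Stored triacylglycerol is broken down stepwise. Adipose triglyceride lipase, the product of *Pnpla2*, removes the first fatty acid, is activated by the *Abhd5* product and is inhibited by the *G0s2* product. Hormone-sensitive lipase, encoded by *Lipe*, acts mainly on diacylglycerol, and monoacylglycerol lipase completes the pathway by releasing glycerol and the last fatty acid. Monoacylglycerol lipase also degrades the endocannabinoid arachidonoylglycerol, as the ABHD6 protein does. Lysosomal acid lipase, encoded by *Lipa*, hydrolyses cholesteryl esters and triacylglycerol inside lysosomes, and *Pnpla3* encodes a lipid droplet protein whose expression in liver responds to feeding.

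Several arrays stood apart before any lipase was considered. The wt arrays wt_1407_2 and wt_1420_6 differed over all probe sets with an SD of 0.168 log2 units and wt_1407_5 and wt_1420_7 with an SD of 0.172, below the range of 0.228 to 0.401 of other wt pairs, so each pair counts as 1 profile in every mean ± SD of wt livers (n = 8). The arrays labelled tg_1386_9 and wt_1386_4 differed with an SD of 0.155 although their genotypes differ, and *Bex1*, which lay between 5.68 and 10.19 on tg arrays and between 2.59 and 3.18 on the other wt arrays, was at 6.80 on the array labelled wt_1386_4. The sample names carry 6 numbers, each found in both genotypes, and livers with the same number are called a set here. Set A holds tg_1371_2 and wt_1371_4, set B tg_1386_9 and wt_1386_4, set C the livers named like tg_1407_3, set D those like tg_1420_4, set E those like tg_1423_2-8_1, and set F tg_14231_6 and wt_14231_2. On the first principal component, the set D liver tg_1420_4 and both tg livers of set E had scores of 53.0 to 70.4, with the other tg arrays at 8.30 or lower. On the 4 arrays of set E, a clock score (the mean of *Arntl*, *Npas2* and *Clock* minus the mean of *Dbp*, *Nr1d1*, *Nr1d2*, *Per3* and *Tef*) was between -4.06 and -2.33, and on the other 16 arrays between 0.74 and 1.43. The labels do not say how the mice are related or when they were killed, so that a p value measures the spread between these samples. The 11 measured hepatocyte markers had a mean level between 13.0 and 13.3 on all arrays.

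*Mgll* had a lower signal in tg livers than in wt livers. Its 4 probe sets lie in a gene at chr6:88724412-88828360 of GRCm38.p6 (coordinates and sequences from RefSeq). On the probe set with the highest mean, 1426785_s_at, tg livers ranged from 7.98 to 9.56 with a median of 8.94, and wt livers from 9.20 to 10.29 with a median of 9.62. All 10 tg arrays were below the wt median and 7 were below the lowest wt array. The means were 8.93 ± 0.45 (SD, n = 10) in tg and 9.69 ± 0.34 (SD, n = 8) in wt livers. The difference over the 20 arrays was -0.75 on the log2 scale (SE 0.159), which puts the tg signal at 59.6% of the wt signal. In a whole liver, a smaller number of cells of a type and less RNA per cell cannot be told apart.

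The sequence before the start of *Mgll* is shown because *Mgll* is the member on which the comparison turns, followed by that of *G0s2*, the member with the next largest difference. Each is the 250 bases upstream of an annotated RefSeq start in GRCm38.p6, written 5′ to 3′ in the direction of transcription, for *Mgll* chr6:88724162-88724411 on the plus strand and for *G0s2* chr1:193273189-193273438 on the minus strand. Capitals mark CACGTG, the E-box bound by clock factors and other basic helix-loop-helix proteins, in *Mgll*, and a GC box (GGGCGG or its complement CCGCCC) in *G0s2*.
Mgll: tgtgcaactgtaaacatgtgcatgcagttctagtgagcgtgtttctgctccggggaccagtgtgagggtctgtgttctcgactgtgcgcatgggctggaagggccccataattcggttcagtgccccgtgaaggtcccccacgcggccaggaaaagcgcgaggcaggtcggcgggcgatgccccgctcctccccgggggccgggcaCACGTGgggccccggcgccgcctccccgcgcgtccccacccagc
G0s2: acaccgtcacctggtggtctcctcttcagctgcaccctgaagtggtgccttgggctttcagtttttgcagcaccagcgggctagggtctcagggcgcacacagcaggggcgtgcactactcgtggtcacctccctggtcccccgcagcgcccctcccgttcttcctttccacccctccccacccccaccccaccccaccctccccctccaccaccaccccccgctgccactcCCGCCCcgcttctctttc
The first base of the E-box of *Mgll* lies 44 bases before this start. RefSeq gives *Mgll* a second start at position 88724704, whose window holds 0 E-boxes and 1 GC box, and the window with the E-box was the one printed. CACGTG, which reads the same on both strands, occurred in 6.02% of the 32851 promoter windows of this length in the RefSeq table. Of the 13 windows of the 9 members, 2 held it, 1 of the 2 windows of *Mgll* and 1 of the 2 of *Lipe*. The GC box of *G0s2* starts 18 bases before the start, and 32.7% of all windows hold a GC box. These matches describe the letters only, and binding to them was not tested.

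The other *Mgll* probe sets were compared in the same way. Probe set 1453836_a_at ranged from 6.73 to 8.24 in tg and from 8.14 to 8.90 in wt livers, a difference of -0.77 (SE 0.151), with 9 of 10 tg arrays below the lowest wt array. Probe set 1450391_a_at ranged from 7.79 to 9.32 in tg and from 8.82 to 10.07 in wt livers, a difference of -0.70 (SE 0.160). Probe set 1431331_at had a mean of 4.74, close to the median of all probe sets at 4.53, and a difference of -0.11 (SE 0.062). After removal of the genotype means, the first of these had an r of 0.890 with 1426785_s_at over 18 profiles, the second 0.975 and the dim probe set 0.209. The 3 brighter probe sets thus moved together from liver to liver, and the dim one did not. Without the arrays labelled tg_1386_9 and wt_1386_4, the highest tg value of 1453836_a_at was 8.13 and the lowest wt value 8.22, so that the groups did not overlap. The share of all probe sets without overlap in this direction was 0.0754%, and nothing is read from it, since *Mgll* was chosen on this contrast. The other 17 probe sets of the members overlapped in that comparison.

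**Figure D1:**
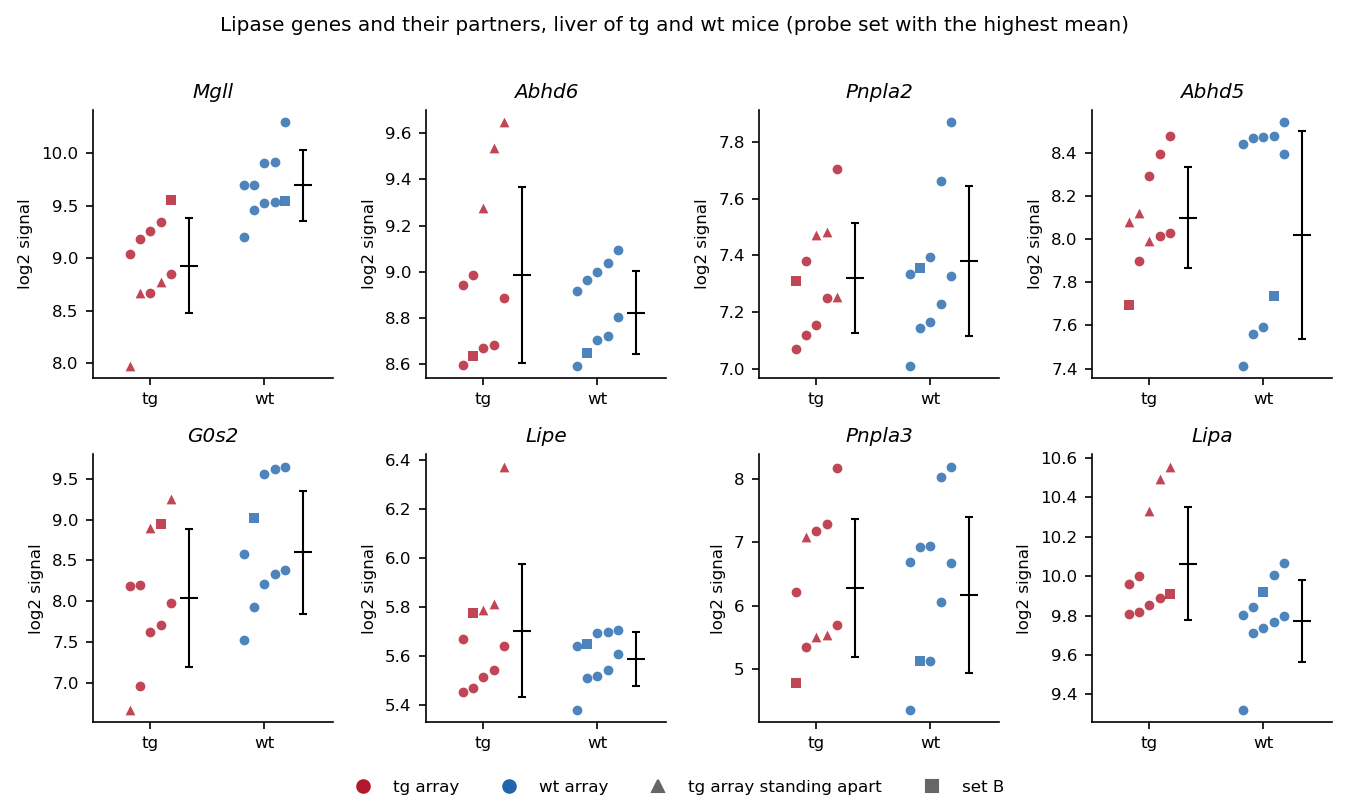
Log2 signal (y axis) of the brightest probe set of each measured member in tg and wt livers, 1 point per array. Black lines give mean ± SD (n = 10 tg arrays, n = 8 wt profiles), triangles the 3 tg arrays that stood apart and squares the arrays of set B; tg points of *Mgll* lie between 7.98 and 9.56 and wt points between 9.20 and 10.29, and the 3 triangles are the highest points of *Lipa* and *Abhd6*.

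The *Mgll* difference was not the same within the 6 sets. It was -1.38 in set E, -0.86 in set C, -0.78 in set D and -0.66 in set A. In sets F and B, each with 1 array per genotype, it was -0.02 and 0.01. The liver tg_14231_6 was at 9.18, and wt_14231_2 at 9.20 was the lowest wt liver. The wt livers of set E, at 9.91 and 10.29, included the highest wt value. Across all 20 arrays and with genotype in the fit, *Mgll* did not pass the test for a difference between sets (limma, adjusted p = 0.822). Averaging the nearly identical wt pairs gave a difference of -0.76, and leaving out tg_1386_9 and wt_1386_4 gave -0.83. Without the 3 tg arrays that stood apart it was -0.55, and without the 4 arrays of set E it was -0.59. The level was lower in tg in every one of these, and the size of the difference depended on the arrays kept.

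**Figure D2:**
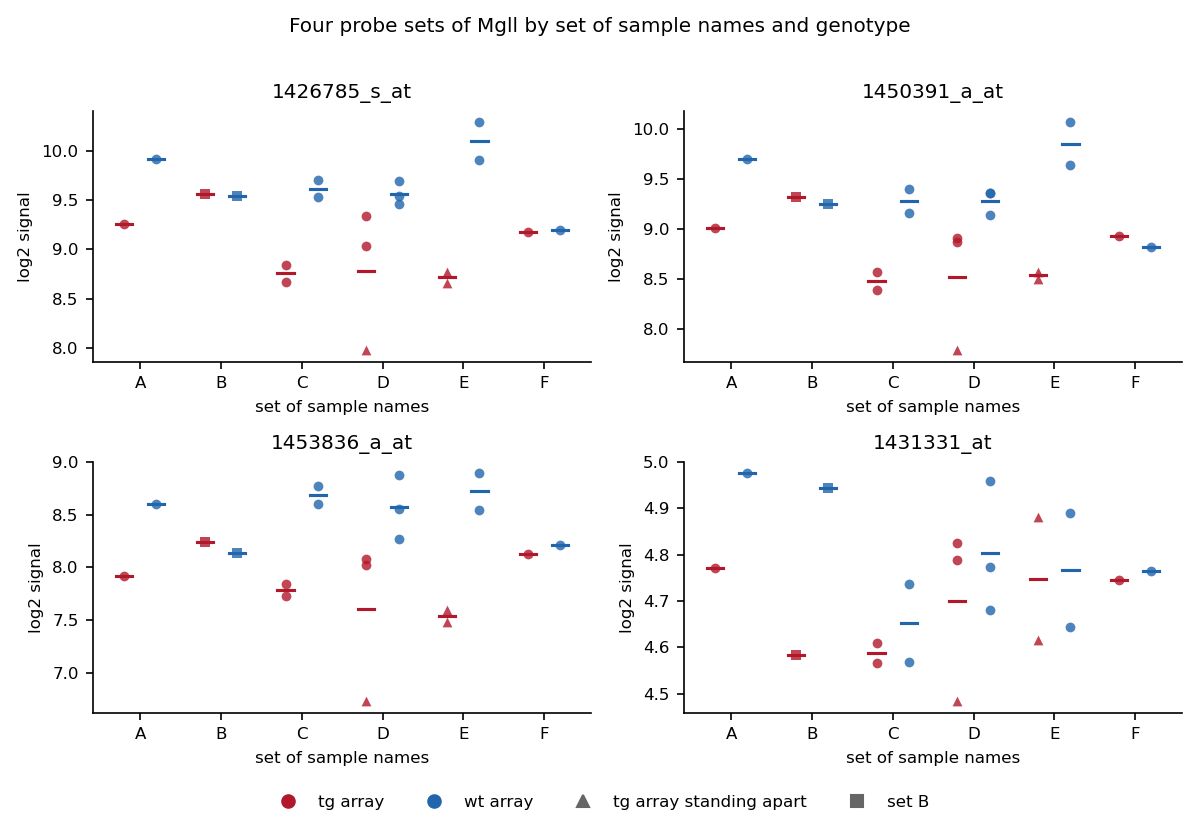
Log2 signal (y axis) of the 4 *Mgll* probe sets by set of sample names (x axis), with tg in red, wt in blue and a line at each mean. In the 3 brighter probe sets tg lies below wt in sets A, C, D and E, and the differences lie between -0.09 and 0.10 in sets B and F.

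*Abhd6* encodes the other monoacylglycerol hydrolase of the group. Its level ranged from 8.60 to 9.65 with a median of 8.91 in tg livers, and from 8.59 to 9.09 with a median of 8.86 in wt livers. The 3 highest livers were the tg livers that stood apart, and the remaining livers of both genotypes overlapped. The difference was 0.14 (SE 0.124, limma adjusted p = 0.559, 95% interval -0.12 to 0.39). Without those 3 arrays it was -0.08 (adjusted p = 0.777). The dimmer probe set 1419104_at had a difference of 0.18 (adjusted p = 0.538) and, unlike the brighter one, passed the test for the sets (adjusted p = 0.0387 against 0.287).

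*Pnpla2*, which starts triacylglycerol hydrolysis, was at 7.32 ± 0.19 (SD, n = 10) in tg and 7.38 ± 0.26 (SD, n = 8) in wt livers. It ranged from 7.07 to 7.70 with a median of 7.28 in tg, and from 7.01 to 7.87 with a median of 7.33 in wt livers. The groups overlapped throughout, and the difference was -0.03 (SE 0.096, limma adjusted p = 0.895) with a 95% interval from -0.23 to 0.17. The second probe set was below the median of all probe sets and had a difference of -0.05 (adjusted p = 0.627).

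*Abhd5*, the activator of adipose triglyceride lipase, ranged from 7.69 to 8.48 with a median of 8.05 in tg and from 7.41 to 8.54 with a median of 8.42 in wt livers. Among wt livers, those of sets A, C and D lay between 8.39 and 8.54 and those of sets B, E and F between 7.41 and 7.74, with no value in between. The difference between genotypes was -0.01 (SE 0.153, limma adjusted p = 0.979, 95% interval -0.33 to 0.31). The probe set 1417565_at had a difference of 0.13 (adjusted p = 0.635), and the dim 1447548_at one of -0.10 (adjusted p = 0.475). The test for the sets gave an adjusted p of 0.0669.

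*G0s2*, the inhibitor of adipose triglyceride lipase, was lower in tg livers by an amount that did not pass the test. It ranged from 6.68 to 9.25 with a median of 8.09 in tg and from 7.53 to 9.65 with a median of 8.48 in wt livers, and 2 tg arrays, tg_1420_4 and tg_14231_6, were below the lowest wt array. The means were 8.04 ± 0.84 (SD, n = 10) and 8.60 ± 0.75 (SD, n = 8), and the difference was -0.64 (SE 0.326, limma adjusted p = 0.275) with a 95% interval from -1.31 to 0.04. Within the sets it was -1.36 in A, -1.34 in C, -1.02 in D, -0.57 in F, -0.07 in B and 0.68 in E. The tg level was thus below the wt level in 5 of 6 sets and above it in set E. These sets are not independent replicates. The arrays of set B were nearly identical across genotypes, and each nearly identical wt pair spans sets C and D. Without the 3 tg arrays that stood apart the difference was -0.73 with an interval from -1.38 to -0.09 (adjusted p = 0.375).

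*Lipe*, hormone-sensitive lipase, ranged from 5.45 to 6.37 with a median of 5.66 in tg and from 5.38 to 5.71 with a median of 5.62 in wt livers. The 4 tg arrays above the highest wt array were tg_1386_9 and the 3 that stood apart, with tg_1423_2-8_4 at 6.37. The difference was 0.11 (SE 0.088, limma adjusted p = 0.506), and -0.01 (adjusted p = 0.957) without those that stood apart. The probe set 1432180_at, below the median of all probe sets, had a difference of -0.08 (adjusted p = 0.536). Of the 7 measured adipocyte markers, 4 were below the median of all probe sets and 0 passed the test in either direction (limma; 0 also had an unadjusted p under 0.05), and their mean level was 5.30 to 5.57 on tg and 5.38 to 5.60 on wt arrays.

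*Pnpla3* varied more between livers than any other member. It ranged from 4.77 to 8.18 with a median of 5.96 in tg and from 4.36 to 8.20 with a median of 6.68 in wt livers, and both genotypes spanned nearly the whole range. The difference was -0.13 (SE 0.480, limma adjusted p = 0.906) with a 95% interval from -1.13 to 0.86, so that neither a fall to 45.7% nor a rise to 182% of the wt signal lay outside the interval. Its mean was 7.37 in set D and 7.07 in set C, but 4.95 in set B, 5.24 in set F, 5.59 in set E and 5.88 in set A. *Pnpla3* passed the test for a difference between the sets (limma F test with genotype in the fit, adjusted p = 0.0293) as the only one of the 8 measured members by its brightest probe set, where 3.4% of all genes passed. Without the 4 wt arrays of the nearly identical pairs the adjusted p was 0.138, and without tg_1386_9 and wt_1386_4 it was 0.0641. What the numbers behind the sets stand for was not stated in any source read here.

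*Lipa*, lysosomal acid lipase, was at 10.06 ± 0.29 (SD, n = 10) in tg and 9.77 ± 0.21 (SD, n = 8) in wt livers. It ranged from 9.81 to 10.56 with a median of 9.94 in tg and from 9.32 to 10.07 with a median of 9.80 in wt livers. The 3 tg arrays above every wt array were those that stood apart, at 10.33 to 10.56. The difference was 0.27 (SE 0.105, 95% interval 0.05 to 0.48) and missed the threshold after adjustment over all probe sets (limma adjusted p = 0.156). The remaining probe sets had differences of 0.19 and 0.19 (adjusted p = 0.437 and 0.453), and without the 3 arrays that stood apart the brightest probe set had a difference of 0.09 (adjusted p = 0.700). Macrophages are rich in this enzyme. Of the 11 macrophage markers measured, all above the median of all probe sets, 8 were higher in tg livers, where 2.98% of all genes were. These were *Cd5l*, *Cd68*, *C1qa*, *Clec4f*, *C1qb*, *Vsig4*, *C1qc* and *Marco*. Their 11-gene mean was 7.77 to 8.56 on tg and 7.43 to 8.07 on wt arrays. The number called was 6 with the nearly identical pairs averaged, 9 without tg_1386_9 and wt_1386_4 and 0 without the 3 tg arrays that stood apart, where all 11 were higher at an unadjusted p under 0.05 (limma), as were 7.82% of all genes. With the marker mean as a covariate the *Lipa* difference was 0.031 (SE 0.149) and the *Mgll* difference -0.48 (SE 0.236). In this fit 0 probe sets on the array passed the test (limma), with 1717 (3.81%) at an unadjusted p under 0.05. The marker mean itself differed between genotypes, at 8.23 (SD 0.27) on tg and 7.70 (SD 0.21) on wt arrays. The fit therefore cannot separate marker level from genotype, and nothing is read from it. The part of these cells in the differences of *Mgll* and *Lipa* was not tested.

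Over the array, 176 of 18194 genes (0.967%) and 299 of 45101 probe sets (0.663%) were lower in tg livers at an adjusted p under 0.05, and 542 genes (2.98%) were higher. In probe sets the split of 850 higher to 299 lower depended on the scaling, and was 682 to 476 after a further quantile normalization and 969 to 156 with arrays centred on their medians. *Mgll*, with 3 of its 4 probe sets, was the 1 member among them, and since it was chosen on this contrast nothing is read from that count. The median difference of the 8 measured members was -0.02, and that of all genes was also -0.02. No member other than *Mgll* passed the test in either direction (limma), and 1 other, *Lipa*, had an unadjusted p under 0.05.

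**Figure D3:**
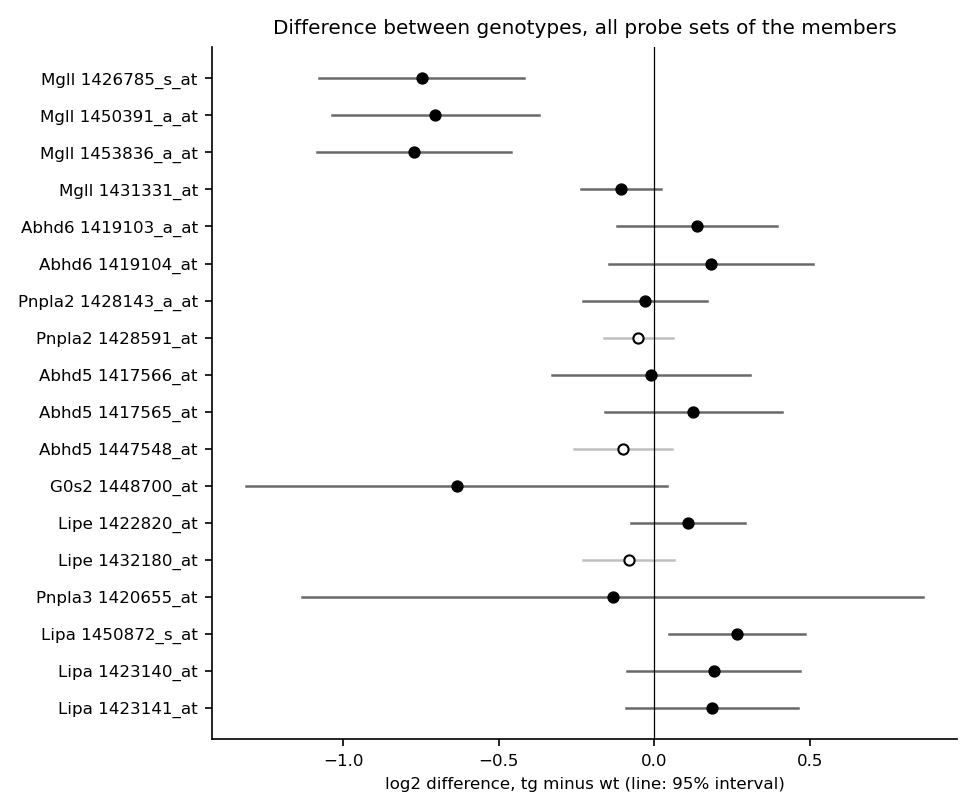
Log2 difference, tg minus wt (x axis), of the 18 probe sets of the members, with 95% intervals from limma on 20 arrays; open points are probe sets below the median of all probe sets. The 3 brighter *Mgll* probe sets lie between -0.77 and -0.70, and the intervals of *Pnpla3* (-1.13 to 0.86) and *G0s2* (-1.31 to 0.04) are the widest.

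Levels within a genotype were not used to choose *Mgll*, so 18 correlations of *Mgll* were computed, 9 per genotype, with the 7 other measured members, *Bex1* and the clock score. In wt livers *Mgll* rose with *Pnpla2* over 8 profiles (r = 0.905, exact permutation p = 0.00114, two-sided, adjusted over the 18 p = 0.0205). By rank, rho was 0.881 (exact permutation p = 0.00724, adjusted p = 0.0502). The highest values of both genes belonged to the wt livers of set E, which have another clock score. Without the 2 profiles farthest from the median of *Mgll*, r was 0.809 (exact permutation test, adjusted p = 0.281), and within the 6 wt profiles of other sets it was 0.763 (exact permutation p = 0.0514, adjusted p = 0.154). In tg livers the same correlation was 0.170 (n = 10, permutation p = 0.632). Whether the genotypes differ in this was not tested.

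In tg livers *Mgll* was lower where *Bex1*, a gene of the brain-expressed X-linked family, was higher. The r was -0.783 over 10 arrays (permutation p = 0.00505 from 100000 permutations, adjusted p = 0.0454), and rho was -0.806 (permutation p = 0.00727, adjusted p = 0.0502). The 5 tg livers with *Bex1* at 7.43 or lower had *Mgll* between 9.04 and 9.56, and the 5 with *Bex1* at 8.84 or higher had *Mgll* between 7.98 and 8.85. The latter were all tg livers of sets C and E, and tg_1420_4 of set D, so the split partly followed the sets. The permutations treated livers of a set as independent, and the p values do not allow for this. Without the 2 arrays farthest from the median of *Mgll*, r was -0.883 (exact permutation test, adjusted p = 0.178). Within the 7 tg arrays that did not stand apart, r was -0.753 (exact permutation p = 0.0502, adjusted p = 0.186). In wt livers, where *Bex1* was low on all arrays but wt_1386_4, the same correlation was -0.103 (n = 8, exact permutation p = 0.866). Whether the genotypes differ in this was not tested. Of the 18 correlations, 2 passed the adjusted threshold by Pearson's r and 0 by rank, where 4 had an unadjusted p under 0.05 (permutation tests).

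**Figure D4:**
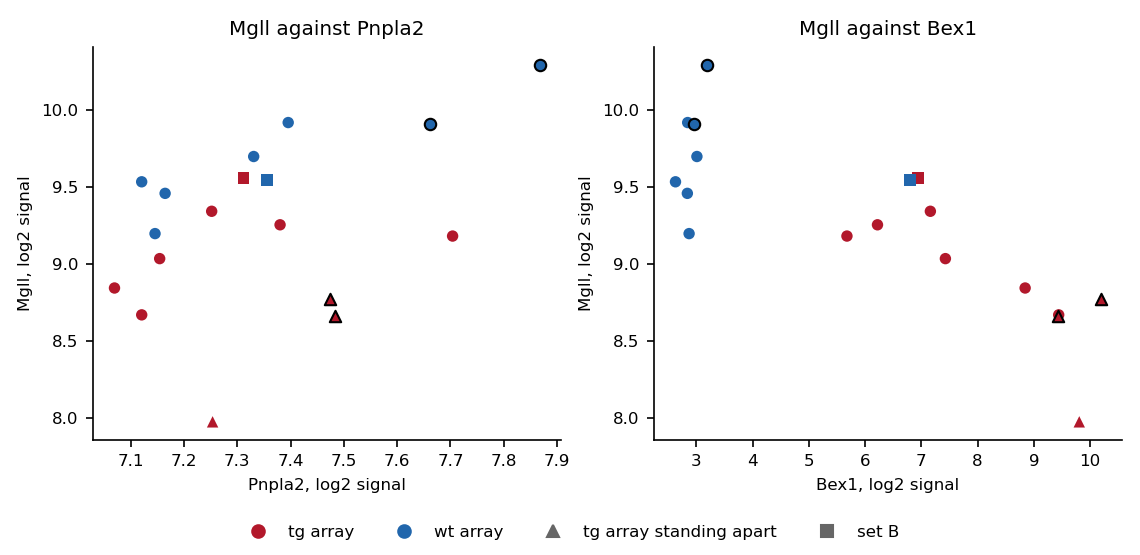
Log2 signal of *Mgll* (y axes) against that of *Pnpla2* (left) and *Bex1* (right) in tg (red) and wt (blue) profiles; outlined points are set E, triangles tg arrays that stood apart and squares set B. Blue points rise from left to right for *Pnpla2* (r = 0.905, n = 8) and red points fall for *Bex1* (r = -0.783, n = 10); the blue square at a *Bex1* level of 6.80 is the array labelled wt_1386_4.

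Among the other members, *Abhd6* and *Lipa* tended opposite to *Mgll* in tg livers, with r of -0.667 and -0.686 over 10 arrays (permutation p = 0.0340 and 0.0279, adjusted p = 0.123 for both), neither of which passed. Without the 3 arrays that stood apart, r was 0.00083 for *Lipa* and -0.704 for *Abhd6*, which did not pass. Without set E it was -0.786 for *Lipa* (adjusted p = 0.161) and -0.889 for *Abhd6* (exact permutation test, adjusted p = 0.0461). The clock score fell into separate clusters by set, so that no correlation over all livers of a genotype is given. Within the 6 wt profiles outside set E its r with *Mgll* was -0.351 (exact permutation p = 0.515), and within the 8 such tg arrays it was -0.823 (exact permutation p = 0.00769, adjusted p = 0.0461), where the score spans only 0.74 to 1.43. The subset without set E was chosen after seeing the data.

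The genes whose genotype-centred pattern was most like that of *Mgll* over 18 profiles were sought among 11774 genes above the median of all probe sets, and r is given as a description. The highest r belonged to *Ech1* (0.885), a dienoyl-CoA isomerase of fatty acid oxidation. Next were *4921525O09Rik* (0.878), *Rab24* (0.875), *Ak3* (0.864), *Pus1* (0.864), *Uqcc3* (0.860), *Fgfrl1* (0.858), *Slc27a2* (0.838), *Timm10* (0.824) and *Nudt12* (0.819). *Ak3* encodes a mitochondrial adenylate kinase, *Uqcc3* an assembly factor of respiratory complex III, *Slc27a2* a fatty acid transport protein and *Timm10* a chaperone of mitochondrial protein import. The lowest r belonged to *Maea* (-0.914), *Trio* (-0.890), *Med28* (-0.870), *Sri* (-0.865) and *Cul4b* (-0.846). These profiles share their arrays and normalization. Over the 15 profiles without the tg arrays that stood apart, r was 0.803 for *Ech1*, 0.923 for *Rab24* and -0.856 for *Maea*.

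Genes of neighbouring steps were taken from lists written with the earlier results known. Over all genes, 2.98% were higher and 0.967% lower at an adjusted p under 0.05 (limma), the shares to set beside each list. Of the 27 other lipases and neutral lipid hydrolases measured, 1 was higher and 5 lower at an unadjusted p under 0.05 (limma). At that level 13% of all genes were higher and 12.2% lower. After adjustment 1 was higher and 1 lower in tg livers, and the median difference of the list was -0.09. The higher was *Lpl*, lipoprotein lipase, which ranged from 10.80 to 12.14 with a median of 11.25 in tg and from 10.14 to 11.19 with a median of 10.52 in wt livers. Of 10 tg livers, 7 were above every wt liver, and the difference was 0.83 (SE 0.167, limma adjusted p = 0.0136). A second *Lpl* probe set had a difference of 0.88 (adjusted p = 0.0134). With the nearly identical pairs averaged *Lpl* differed by 0.77 (adjusted p = 0.0566), and without the 3 arrays that stood apart by 0.56 (adjusted p = 0.0689). *Ddhd2*, a phospholipase and triacylglycerol hydrolase, had a difference of -0.35 on its brightest probe set (adjusted p = 0.0492). None of its 3 dimmer probe sets, all below the median of all probe sets, passed. Their differences were -0.67 for 1444320_at, -0.10 for 1457209_at and 0.12 for 1444590_at. The carboxylesterase *Ces1e* (-0.57, adjusted p = 0.150) and *Pnpla5* (-0.46, adjusted p = 0.548) did not pass.

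Of 14 genes of monoacylglycerol and endocannabinoid metabolism measured, 4 were higher and 1 lower at an unadjusted p under 0.05 (limma). After adjustment 1 was higher and 0 lower, and the median difference of the list was 0.01. This was *Acsl4*, an acyl-CoA synthetase that prefers arachidonic acid, which ranged from 9.31 to 9.86 in tg and from 9.06 to 9.47 in wt livers, a difference of 0.32 (SE 0.076, limma adjusted p = 0.0326). Its 3 probe sets had differences of 0.32, 0.33 and 0.44, and all passed. *Faah*, the hydrolase of the endocannabinoid anandamide, differed by -0.22 (adjusted p = 0.0905), *Abhd4*, which takes part in the synthesis of anandamide, by 0.33 (adjusted p = 0.0872) and *Acsl3* by 0.48 (adjusted p = 0.220).

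Among 25 cofactors and inhibitors of lipases, which include perilipins and angiopoietin-like proteins, 0 passed by limma in either direction (median difference -0.04; 4 higher and 3 lower at an unadjusted p under 0.05, which 13% of all genes reached in the higher and 12.2% in the lower direction, 25.2% in all), with *Angptl8* at -0.59 (adjusted p = 0.417), *Fitm1* at -0.41 (adjusted p = 0.160) and *Fabp5* at 0.36 (adjusted p = 0.166). Of 19 genes of triacylglycerol synthesis, 1 was lower, *Agpat3*, an acylglycerophosphate acyltransferase (-0.32, adjusted p = 0.0471), and none of its 3 dimmer probe sets passed. At an unadjusted p under 0.05 (limma), 0 of the 19 were higher and 2 lower. Of 25 targets of PPAR alpha and of fasting, 3 were higher and 8 lower at an unadjusted p under 0.05 (limma). After adjustment 1 was higher and 1 lower. These were *Cyp4a31*, a fatty acid hydroxylase with close relatives that may share its probes (1.26, adjusted p = 0.0313), and *Cpt2*, the inner carnitine palmitoyltransferase of mitochondria (-0.25, adjusted p = 0.0380), for which the dimmer of the pair of probe sets had a difference of -0.09 (adjusted p = 0.522). Of 16 lysosome genes beside *Lipa*, 1 was higher, the protease cathepsin L (*Ctsl*, 0.37, adjusted p = 0.0144), with a median difference of 0.10 over the list. At an unadjusted p under 0.05 (limma), 6 of the 16 were higher and 0 lower. The lists were written with the earlier results known, so nothing is read from these counts. On the dimmer probe set of *Ctsl* the difference was 0.14 (adjusted p = 0.875). The 9 genes of lipid uptake and the 16 clock genes had 0 that passed (limma), with medians of -0.08 and -0.07. At an unadjusted p under 0.05, 1 of the former was higher and 1 lower, against 0 of the clock genes. With the nearly identical pairs averaged, *Ctsl* alone of these called genes beside the members still passed (adjusted p = 0.0477), and without the 3 arrays that stood apart 0 did (limma). In the latter case all 7 had an unadjusted p under 0.05, as did 14.2% of all genes, and nothing is read from this, since the 7 were called on the same contrast. With arrays centred on their medians *Ddhd2* (adjusted p = 0.0639) and *Agpat3* (adjusted p = 0.0643) did not pass.

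**Figure D5:**
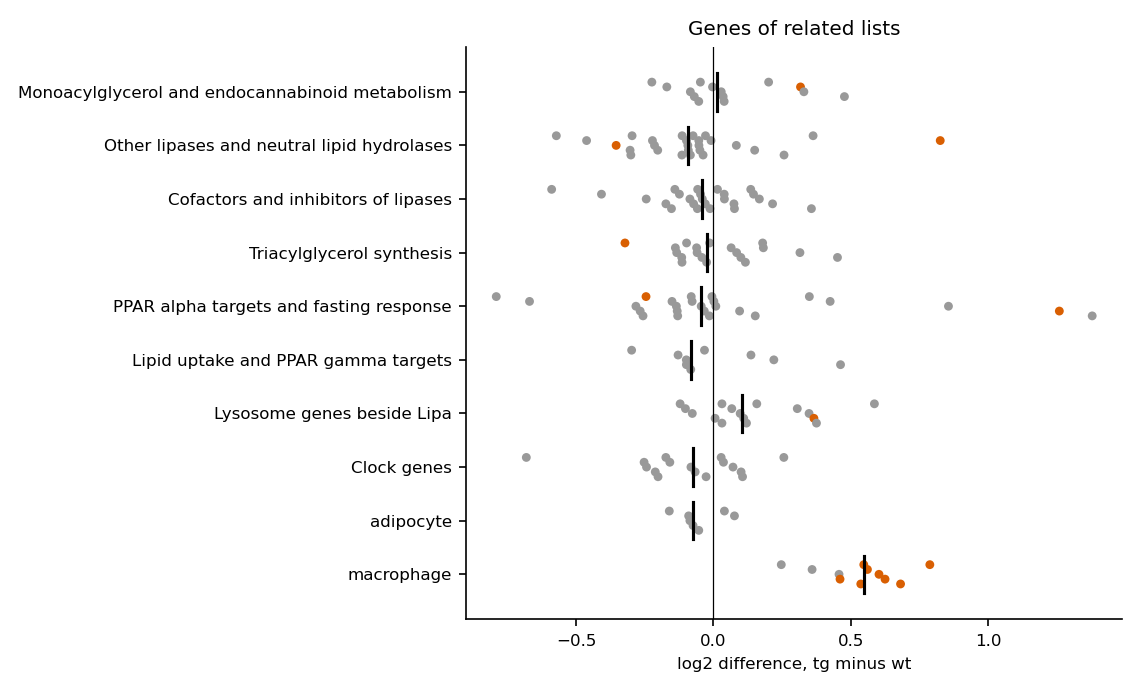
Log2 difference, tg minus wt (x axis), of each measured gene in 8 lists of related function and in the adipocyte and macrophage marker lists, 1 point per gene, with orange for an adjusted p under 0.05 and a black line at the median. Medians of the 8 functional lists lie between -0.09 and 0.10, and that of the macrophage markers at 0.55.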

How the data were processed

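Affymetrix arrays measured 1 liver each by the sample names. The authors scanned the arrays and normalized them with Robust Multi-array Average, and the deposited values are log2 signals, used here as given. No source read here states the version of that program. 0 columns were without a sample. The number of arrays limits the precision.

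Gene names are those of the platform annotation, and a gene is represented by the probe set of its own symbol with the highest mean over the 20 arrays. R 4.3.3 with limma 3.58.1 fitted genotype as the only term to the 20 arrays, with Benjamini-Hochberg adjustment over all 45101 probe sets and a threshold of 0.05. A second fit with genotype and set gave the F test for the sets. Correlations used Python 3.11.15, numpy 2.4.6, pandas 2.3.3 and scipy 1.17.1, and plots matplotlib 3.10.9. The functions were tested on simulated data.

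The members, lists and tests were chosen with earlier results of these data known. Named were all probe sets of the members, list genes past the threshold, up to 3 further genes of a list with the largest differences and a mean above 4.53 (the median of all probe sets), and the 10 genes most and 5 least like *Mgll*; *Bex1* was taken as a gene with a large difference between genotypes.

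Samples of both genotypes share 6 numbers in their names, which define the sets and whose meaning no source read here states. After removal of genotype means, the correlation of tg with wt arrays sharing a number was 0.184 to 0.404 and highest for the own number in 5 of 6 cases. These cases include set B, whose arrays were nearly identical, and sets C and D, which the nearly identical wt pairs span. The numbers may thus pair the samples, but this count does not settle it. The fit with the number as a replicate block, nearly identical arrays averaged, arrays left out, other scaling, array weights and covariates were alternatives.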

Additional observations from a re-analysis of the deposited data

Results flagged for a closer look

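Of 16 groups of values (8 members in each genotype) examined for a lone extreme array, 2 had one. Chance alone gives about 1 in 20 such groups if arrays are independent and their values normally distributed, which was not tested here. Both extreme arrays belong to set E. *Lipe* on tg_1423_2-8_4 was at 6.37 and the next tg array at 5.81, a gap of 0.610 of the range of the tg arrays. *Lipa* on wt_1423_2-8_3 was at 9.32 and the next wt profile at 9.74, a gap of 0.579 of the range.

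The sets with at least 2 arrays per genotype, C, D and E, were compared for direction. For 3 members, every tg array lay to one side of every wt array in 1 of these sets and to the other side in another. The share of all genes that do so was not computed. These opposite directions were not tested, so nothing is read from the count. The wt arrays of set C include members of both nearly identical pairs. *Lipe* differed by -0.092 in set C, where the nearest tg and wt arrays were at 5.5418 and 5.5422, and by 0.42 in set E. *Abhd5* differed by -0.073 in set C and by -0.48 in set D, but by 0.53 in set E. In set C its nearest tg and wt arrays were at 8.4757 and 8.4774, and its probe set 1417565_at differed by 0.11. *G0s2* differed by -1.34 in set C and by 0.68 in set E, where the 4 arrays also have another clock score.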

How the results depend on the processing

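*Mgll* was lower in tg livers in all 37 alternatives, with a difference between -0.85 and -0.48, and between -0.82 and -0.64 when 1 array was left out at a time. Several alternatives, such as the set as a replicate block, left the difference itself unchanged. Since *Mgll* was chosen on this contrast in these same arrays, nothing is read from the shared sign. The number of members called, 1 (*Mgll*), was 0 with the nearly identical wt pairs averaged, with the 3 tg arrays that stood apart left out, with set E left out, and with the macrophage mean as a covariate, an alternative added after seeing the data. The number of members called for the set, 1 (*Pnpla3*), was 0 without the 4 wt arrays of the nearly identical pairs, without tg_1386_9 and wt_1386_4, and with trend and robust empirical Bayes. With the set as a replicate block the *Mgll* difference was -0.75 the count of members called stayed at 1 and no call of another member changed; over the array 1634 probe sets were higher and 607 lower, against 850 and 299 without the block. Averaging the pairs left 245 higher and 31 lower probe sets, and leaving out the arrays that stood apart 158 and 8. Quantile normalization gave 682 and 476, and centring on medians 969 and 156. Over all alternatives the counts ran from 0 to 1785 higher and from 0 to 845 lower, and with 1 array left out from 391 and 72 without tg_1420_4 to 1684 and 776 without tg_1386_9.

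The small differences of other members changed sign in some alternatives, none of which passed. *Pnpla2* was at 0.035 without set E, 0.0037 with array weights, 0.010 with the clock score, 0.12 with the macrophage mean, and between -0.072 and 0.029 with 1 array left out. *Pnpla3* was at 0.11 with pairs averaged, 0.13 when tg_1386_9 and wt_1386_4 were also left out, and between -0.36 and 0.064 with 1 array left out. *Abhd5* was at 0.080 with pairs averaged, 0.084 when tg_1386_9 and wt_1386_4 were also left out, 0.0051 without the arrays that stood apart, 0.013 centred on medians, and between -0.088 and 0.038 with 1 array left out. Without the arrays that stood apart *Lipe* was at -0.014 and *Abhd6* at -0.077; *Abhd6* was at -0.0078 without set E and -0.035 with the macrophage mean. *G0s2* stayed negative and *Lipa* positive, at its lowest 0.031 with the macrophage mean. The cause was not tested.

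Correlations with *Mgll* that did not pass also changed sign. Without the arrays that stood apart, r in tg was 0.718 for *Lipe*, 0.00083 for *Lipa* and -0.721 for the clock score. Without the 2 farthest arrays it was 0.127 for *Pnpla3* and -0.368 for *G0s2* in tg, and -0.379 for *Pnpla3* in wt. Without set E it was -0.823 for the clock score in tg, and 0.385 for *Lipa* and 0.673 for *Abhd5* in wt.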

Other observations

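Markers of other liver cells stood beside the lipases as follows. Of 8 endothelial markers, 1 was higher in tg livers, where 2.98% of all genes were. This was *Lyve1*, a hyaluronan receptor of sinusoidal and lymphatic endothelium, which ranged from 5.38 to 7.92 in tg and from 5.04 to 6.26 in wt livers (0.995 higher, limma adjusted p = 0.0214). Without the 3 arrays that stood apart the *Lyve1* difference was 0.82 (adjusted p = 0.125). Of 8 stellate, 7 cholangiocyte, 8 pancreas acinar and 11 hepatocyte markers measured, 0 passed in either direction (limma). At an unadjusted p under 0.05, 13% of all genes were higher and 12.2% lower. Among the markers there were 3 higher stellate, 1 lower acinar, and 1 higher and 1 lower hepatocyte marker at that level. Of these, 5 of the cholangiocyte and 4 of the acinar markers were below the median of all probe sets. The mice's sex and the hour of killing are not in the labels, and no protein or enzyme activity of a lipase was measured.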
